A study of Mus musculus with 12 samples.

Results

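The genes described here are 41 components of the lysosome: 18 hydrolases and their helpers, 6 proteins of the lysosomal membrane, the transcription factors Tfeb and Tfe3, and 15 subunits and accessory proteins of the vacuolar ATPase. They were taken by symbol from the 23621 gene symbols of a count table. Each of the 41 had a row, and 40 of the 10604 genes that passed the filter on low counts were among them. The exception, Atp6v0c, a proteolipid subunit of the pump's membrane ring, was listed at 0 reads in each of the 12 libraries and was not tested. A limit of 3 reads corresponds to 0.0954 to 0.153 CPM (a gene's reads scaled to a common library total) in these libraries, so the gene could not be detected above that level under its symbol. Genes with near-identical copies can lose reads in counting, and whether this applies to Atp6v0c was not tested. The column names end in ReadsPerGene and the processing notes name STAR, but the counting rule is not spelled out further in the sources used here.

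The libraries were made from neutrophil RNA, 4 in each of 3 groups, and every mouse was a female Balb/c aged 8 weeks. LDN were the low-density and HDN the high-density neutrophils in the peripheral blood of mice carrying liver metastases of breast cancer. Naive were bone marrow neutrophils of mice without tumours. Age, sex and strain were shared by the groups, so LDN and HDN differed by density fraction, while either blood group differed from Naive by tissue and tumour together, which cannot be told apart. In addition, the names of the 8 LDN and HDN columns hold what looks like a date and those of Naive do not, and this too cannot be told apart from the tissue. The labels do not say whether libraries came from separate animals, so the p-values measure the spread between these libraries only. Total counts were 23181686 to 26456768 in LDN, 20049857 to 30044508 in HDN and 18113922 to 27741885 in Naive.

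Lysosomes degrade proteins, lipids and glycans taken up by the cell or delivered by autophagy. Their hydrolases work in acid, and the vacuolar ATPase keeps the lumen acid by coupling ATP hydrolysis in its cytosolic V1 sector to proton passage through its membrane sector, V0. Membrane proteins such as Lamp1 and Lamp2 line the compartment, and in neutrophils Cd63 also marks the azurophil granules, which are themselves related to lysosomes. TFEB and TFE3 are basic helix-loop-helix factors that bind E-box sequences in many lysosomal promoters and activate these genes when the kinase mTORC1 is off.

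The neutrophil markers S100a8, S100a9, Csf3r, Cxcr2, Retnlg, Mmp8 and Itgam were present in every group, with a summed level of 158000 to 204000 CPM in LDN, 76300 to 123000 CPM in HDN and 132000 to 163000 CPM in Naive. Because cathepsins, Cd68 and Lgmn are also strong in macrophages, monocyte and macrophage markers are given beside them. Their 14 measured genes summed to 248 to 342 CPM in LDN, 347 to 549 CPM in HDN and 618 to 825 CPM in Naive, so the total was lower in both blood groups than in Naive. Csf1r and Ly6c2 made up most of that sum, and single markers went both ways. Of 11 tested, 4 rose and 5 fell in LDN relative to Naive, 3 rose and 6 fell in HDN relative to Naive, and 7 rose and 1 fell in LDN relative to HDN. F13a1 averaged 77.2 ± 45.8 CPM in LDN, 27.5 ± 33.6 CPM in HDN and 1.5 ± 1.29 CPM in Naive (SD, n = 4 each). Vcan was scarce but followed the same order, with means of 2.64, 1.47 and 0.0219 CPM in LDN, HDN and Naive. The macrophage genes C1qa, C1qb, C1qc, Cd163 and Marco were at 0 in HDN, and Cd163 and Marco were at 0 in LDN. Platelet markers summed to 27.6 to 32.6 CPM in LDN, 9.46 to 11.3 CPM in HDN and 111 to 121 CPM in Naive. T and NK cell markers summed to 32.4 to 49.5, 3.59 to 19.4 and 193 to 267 CPM in these groups. B cell markers summed to 1.26 to 5.92, 0.382 to 2.17 and 19.5 to 51.8 CPM. Eosinophil and basophil markers stood otherwise, at 14.2 to 23.6, 40.5 to 86.2 and 15.5 to 65.7 CPM. Single platelet and T and NK cell markers went both ways. The part of other cells in the results was not tested. These are bulk samples, in which fewer cells of a type and less RNA per cell cannot be told apart.

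The 3 contrasts were read from a single edgeR quasi-likelihood fit over all genes, and a gene was called higher or lower at an adjusted p under 0.05. Between the density fractions, 7 of 40 members rose in LDN relative to HDN, 10 fell and 23 did not pass. That is 42.5% called, against 46.3% of all 10604 genes, so the share was near that of genes in general. The shares called higher and lower were 17.5% and 25.0%, against 26.0% and 20.3% of all genes. The members' median log2 fold change was -0.13, against 0.02 for all genes. Against marrow the balance was different. In HDN relative to Naive, 20 members rose, 6 fell and 14 did not pass, which is 65.0% called against 59.8% of all genes, with 50% called higher against 30.0% and 15.0% called lower against 29.9%. In LDN relative to Naive, 19 rose, 5 fell and 16 did not pass, which is 60.0% called against 54.2%, with 47.5% called higher against 27.4% and 12.5% called lower against 26.8%. The median log2 fold change of the members was 0.33 in HDN over Naive and 0.39 in LDN over Naive, against 0.04 and 0.01 for all genes. These last comparisons share the Naive libraries.

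The split between higher and lower members in LDN over HDN moved with the scaling of the libraries. With library totals alone, 2 members rose and 20 fell, but the median of all genes then stood at -0.28. With library sizes that leave out the 20 most abundant genes, 5 rose and 16 fell at an all-gene median of -0.12. Set against the median of all genes, the members' median was -0.15 in the main fit, -0.13 with library totals and -0.14 without the abundant genes. No called member changed sign under any of these scalings. With library totals, 10 members that did not pass in the main fit also fell in LDN relative to HDN, namely Ctsd, Ctsl, Ctsz, Gla, Man2b1, Tfeb, Atp6v0b, Atp6v0e, Atp6v1b2 and Atp6v1f, at log2 fold changes of -0.41 to -0.56. Without the abundant genes Ctsz, Gla, Man2b1, Tfeb, Atp6v0b and Atp6v1b2 did, at -0.25 to -0.41. In LDN relative to Naive, Tpp1, Tfe3, Atp6v1e1 and Atp6v1f fell in both scalings, at -0.33 to -0.48.

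**Figure D1:**
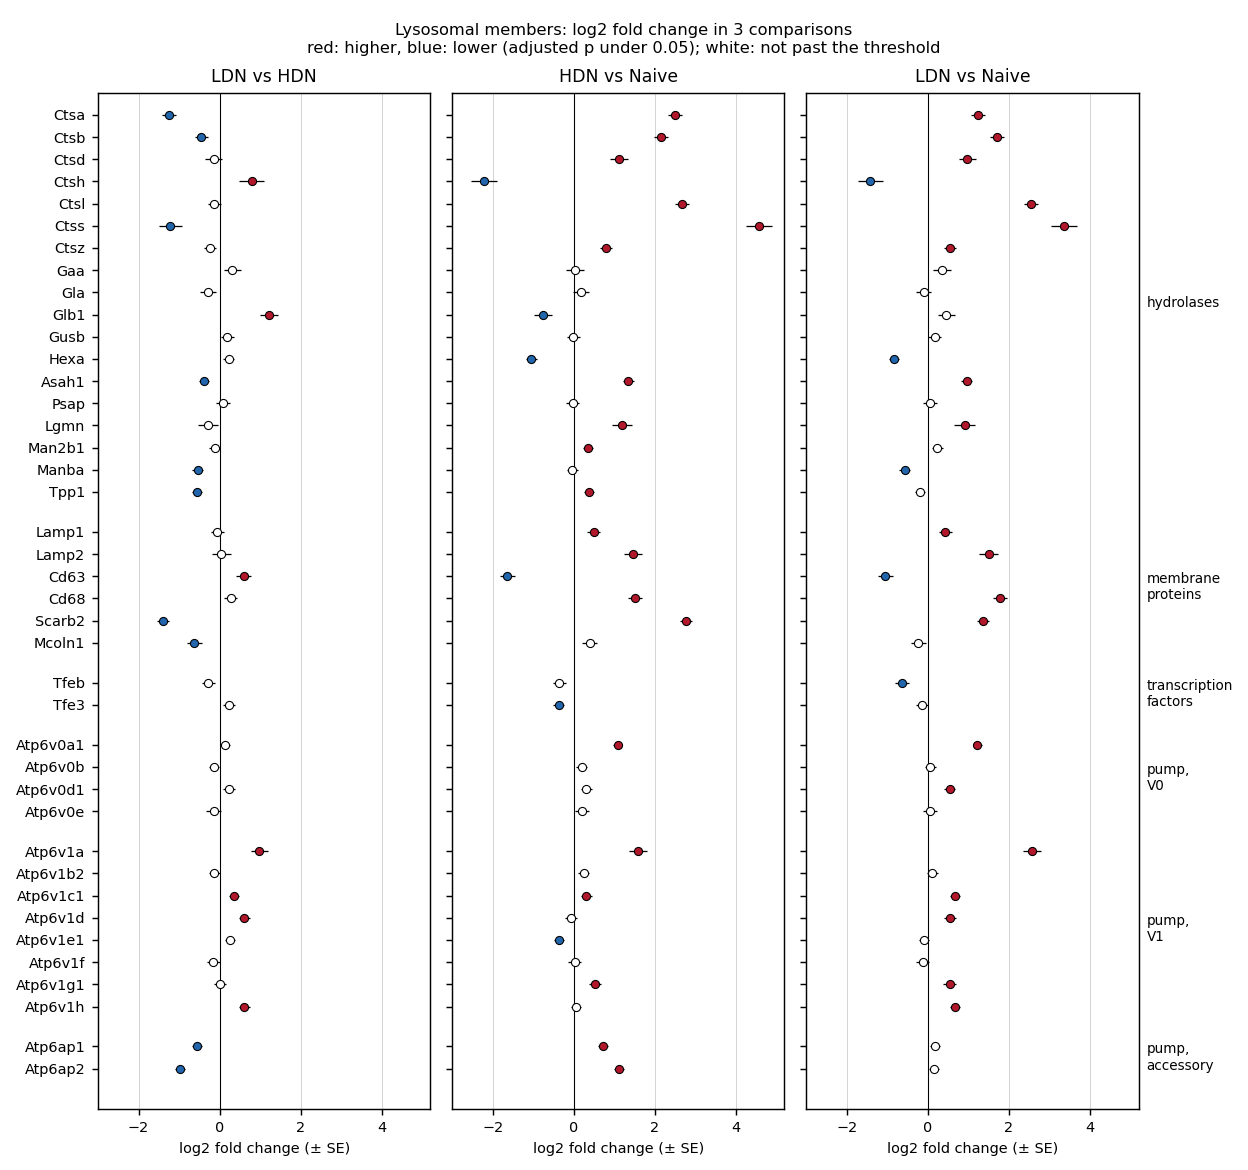
Log2 fold change with its standard error for the 40 tested members in LDN over HDN, HDN over Naive and LDN over Naive, ordered by class, with red for higher, blue for lower and white for not past an adjusted p of 0.05 (4 libraries per group). The points of the 2 panels against Naive lie mostly right of 0, up to 4.57 for Ctss in HDN, while the LDN over HDN panel spreads from -1.41 for Scarb2 to 1.21 for Glb1. In that panel 7 points are red and 10 blue in the main scaling, against 2 and 20 with library totals alone.

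Tfeb, the factor best known as the master activator of lysosomal genes, had 68.1, 79.1, 65.9 and 78.0 CPM in LDN, 96.3, 93.8, 97.9 and 65.5 CPM in HDN, and 144, 121, 93.2 and 95.6 CPM in Naive. Its level was lowest in LDN, and each LDN library lay below each Naive library. Tfeb fell in LDN relative to Naive by 0.64 on the log2 scale (SE 0.16, edgeR adjusted p = 0.00468), a call lost with the replicate number as a block (-0.31, edgeR adjusted p = 0.19). Only the numbers 3 and 4 occur in both Naive and the blood groups, and Naive numbers did not pair with theirs. Block results against Naive, here and below, thus rest on those numbers and cannot decide whether a call holds. The other contrasts did not pass, at -0.28 ± 0.16 (SE) for LDN over HDN and -0.36 ± 0.16 for HDN over Naive. HDN 7 stood below the other HDN libraries, and without it the difference between LDN and HDN was -0.40 with an edgeR adjusted p of 0.0425. HDN over Naive passed without Naive 3, at -0.45 with an edgeR adjusted p of 0.0421, without Naive 4, at -0.44 with 0.0489, and without the 20 most abundant genes, at -0.51 with 0.00348.

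Tfe3, the related factor, had 149.6, 151, 166 and 145 CPM in LDN, 140.0, 139, 149 and 95.8 CPM in HDN, and 207, 168, 154 and 151 CPM in Naive. Its level fell in HDN relative to Naive by 0.37 on the log2 scale (SE 0.15, edgeR adjusted p = 0.0388), and the groups did not overlap. That call was lost without HDN 3, HDN 7, Naive 1 or Naive 2, with edgeR adjusted p of 0.0537 to 0.107 and log2 fold changes of -0.25 to -0.40. It was also lost with the HDN and Naive libraries alone (-0.39, edgeR adjusted p = 0.0553) and with the replicate number as a block (-0.19, edgeR adjusted p = 0.292). LDN did not pass against HDN (0.22 ± 0.15, SE) or Naive (-0.15 ± 0.15). Neither factor rose in a blood group, while most called members of the other classes did. These are RNA levels, and the activity of the factors was not tested.

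The promoters of the members were searched for the E-box that these factors bind. RefSeq promoter windows on the mouse build GRCm38.p6, from 250 bases before to 50 bases after the annotated start, were found by symbol for 34 members. None was matched for Asah1, Atp6v1b2, Atp6v1c1, Atp6v1g1, Atp6v1h, Ctsb and Ctsh. The 6-letter core CACGTG, which reads the same on both strands, was in 13 of the 34 windows (38.2%), against 8.09% of 27025 genes in the table and 11.0% of the 11543 with reads here. The longer palindrome TCACGTGA, which contains that core, was in 7 of 34 (20.6%), against 1.12% of all genes and 1.91% of those with reads. The same palindrome preceded by G and followed by C, 10 letters in all, was in 0 of 34 and in 0.370% of all genes. These shares describe letters in the windows and not binding.

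The windows below were picked after the matches were seen, to show how the core repeats and where it sits in hydrolases, membrane proteins and pump genes. The windows of Tfeb and Tfe3 held 0 cores. Capitals mark each CACGTG, sequences run 5′ to 3′ along the gene's own strand, and all 7 stretches lie upstream of the annotated start on GRCm38.p6. Lamp1, with 4 copies in a row, is shown at chr8:13159091-13159160, plus strand. Mcoln1 is at chr8:3500429-3500488, plus strand, and Ctsa at chr2:164833733-164833772, plus strand. Ctsd is at chr7:142387888-142387947, Gla at chrX:134601186-134601255, Atp6v0b at chr4:117887330-117887389 and Atp6v1a at chr16:44139350-44139409, each on the minus strand.
Lamp1: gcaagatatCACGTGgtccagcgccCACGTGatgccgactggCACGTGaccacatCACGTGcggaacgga
Mcoln1: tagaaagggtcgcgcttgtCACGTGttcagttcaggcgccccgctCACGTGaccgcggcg
Ctsa: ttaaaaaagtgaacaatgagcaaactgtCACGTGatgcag
Ctsd: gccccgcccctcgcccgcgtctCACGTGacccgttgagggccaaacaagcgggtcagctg
Gla: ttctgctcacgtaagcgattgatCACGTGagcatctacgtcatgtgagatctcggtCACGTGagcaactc
Atp6v0b: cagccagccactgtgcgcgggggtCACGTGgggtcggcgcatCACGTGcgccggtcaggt
Atp6v1a: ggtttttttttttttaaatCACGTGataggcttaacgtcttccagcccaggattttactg

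The calls of members with and without the core were counted apart. In LDN over HDN, 2 of the 13 with CACGTG rose and 2 fell, and of the 20 tested members whose window lacks it 2 rose and 6 fell. In HDN over Naive, 6 of 13 rose and 1 fell with the core, and 10 of 20 rose and 4 fell without it. In LDN over Naive the counts were 7 of 13 up and 0 down with the core, and 7 of 20 up and 4 down without. Lamp1, with 4 cores, had log2 fold changes of 0.49 ± 0.16 (SE) for HDN over Naive and 0.44 ± 0.16 for LDN over Naive. Of the 5 members with 2 cores, Ctsa passed in all 3 contrasts, Ctsd in both against Naive, Mcoln1 in LDN over HDN, and Gla and Atp6v0b in none. Of all genes, 26.0% rose and 20.3% fell in LDN over HDN, 30.0% and 29.9% in HDN over Naive, and 27.4% and 26.8% in LDN over Naive. The difference between members with and without the core was not tested.

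**Figure D2:**
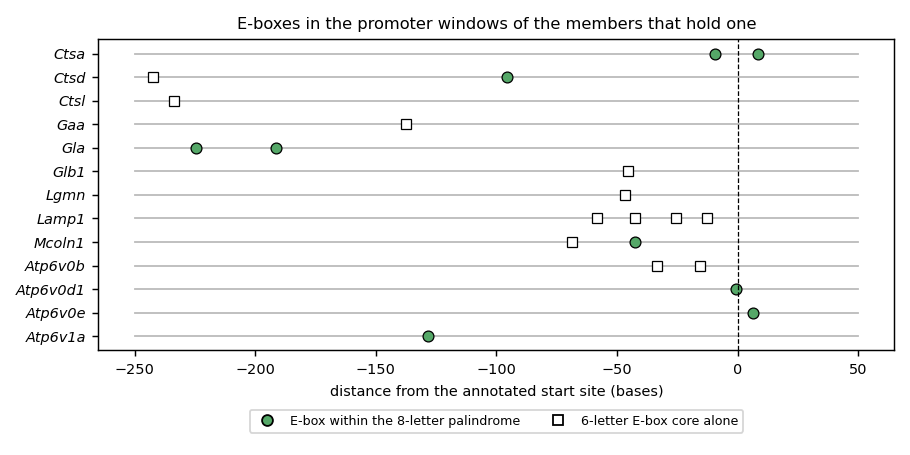
Position of each CACGTG core in the 13 member promoters that hold one, as distance in bases from the annotated start (dashed line), with green circles for cores inside TCACGTGA and open squares for the others. Lamp1 carries 4 cores between positions -61 and -10, while Ctsd, Ctsl, Gaa, Gla and Atp6v1a carry cores farther upstream.

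All 7 cathepsins among the members differed from marrow in both blood groups. Of these, 6 rose in HDN and in LDN relative to Naive and 1, Ctsh, fell in both. Their median log2 fold change was 2.15 in HDN over Naive and 1.24 in LDN over Naive. Of all genes, 59.8% were called in HDN and 54.2% in LDN relative to Naive, and 46.3% between the fractions. Between the fractions, Ctsa, Ctsb and Ctss fell in LDN relative to HDN, Ctsh rose and Ctsd, Ctsl and Ctsz did not pass. With library totals alone 6 of these cathepsins fell and 0 rose in LDN relative to HDN. Of the tested cathepsins outside the members, Ctsc, Ctso and the scarce Ctsk rose and Ctse fell in both blood groups relative to Naive. Between the fractions Ctsc was 2.05-fold higher in LDN (edgeR adjusted p = 0.0016), Ctsk was lower, and Ctso and Ctse did not pass.

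Ctss, the cysteine protease that trims the invariant chain in antigen presentation, had 128, 142, 74.0 and 108 CPM in LDN, 269, 432, 139 and 209 CPM in HDN, and 11.2, 12.7, 10.8 and 9.24 CPM in Naive. Marrow libraries were uniformly low, and the LDN and HDN ranges overlapped by 1 library, HDN 5. Ctss was 23.8-fold higher in HDN than in Naive (edgeR adjusted p = 5.71e-08) and 10.3-fold higher in LDN than in Naive (edgeR adjusted p = 1.23e-06). It was 2.33-fold lower in LDN than in HDN (log2 -1.22, SE 0.29, edgeR adjusted p = 0.0037), and LDN was the lower library in 4 of 4 pairs with the same number.

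Ctsa, the protective protein that stabilises beta-galactosidase and neuraminidase in the lysosome, had 275, 302, 227 and 308 CPM in LDN, 659, 808, 690.4 and 499 CPM in HDN, and 145, 126, 99.4 and 100.1 CPM in Naive. The 3 groups did not overlap and stood in the order HDN, LDN, Naive. Ctsa was 2.39-fold lower in LDN than in HDN (edgeR adjusted p = 6.42e-05), 5.65-fold higher in HDN than in Naive (edgeR adjusted p = 4.76e-08) and 2.37-fold higher in LDN than in Naive (edgeR adjusted p = 3.71e-05). In the annotation used here its exons share 10.5% of their length with Pltp and 6.87% with Neurl2 on the opposite strand. Those genes had 398 and 86 reads in total.

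Ctsb, a cysteine protease of broad specificity, had 721, 730.2, 741 and 684 CPM in LDN, 1015, 1139, 1165 and 613 CPM in HDN, and 243, 214, 219 and 209 CPM in Naive. Its exons share 12.8% of their length with Fdft1 on the opposite strand, which had 5910 reads in total. Both blood groups lay far above marrow, by 4.45-fold in HDN (edgeR adjusted p = 1.63e-07) and 3.25-fold in LDN (edgeR adjusted p = 2.33e-06). HDN 7 lay below the LDN libraries and the other HDN libraries above them. The fall in LDN relative to HDN was 1.37-fold (log2 -0.45, SE 0.17, edgeR adjusted p = 0.0396) and did not pass without HDN 3, HDN 4, HDN 5, Naive 2, Naive 3 or Naive 4, with log2 fold changes of -0.36 to -0.45 and edgeR adjusted p of 0.0542 to 0.115. In limma-voom it was -0.41 with an adjusted p of 0.0656.

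Ctsl, which like Ctsb cleaves within proteins, had 89.4, 89.6, 78.7 and 82.6 CPM in LDN, 95.3, 105, 92.3 and 80.2 CPM in HDN, and 18.6, 16.7, 11.4 and 11.5 CPM in Naive. It was 6.40-fold higher in HDN than in Naive (edgeR adjusted p = 1.61e-08) and 5.84-fold higher in LDN than in Naive (edgeR adjusted p = 5.03e-08). The fractions overlapped, with a log2 fold change of -0.13 ± 0.16 (SE) for LDN over HDN. An antisense gene model covers 26.8% of its exons, and reads on the 2 strands cannot be told apart because the strand setting of the counting is not given.

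Ctsh, an aminopeptidase, ran the other way. It had 56.2, 50.9, 75.4 and 34.8 CPM in LDN, 37.2, 30.5, 45.6 and 12.7 CPM in HDN, and 157, 142, 145 and 139.6 CPM in Naive. Every marrow library was above every blood library. Ctsh was 4.63-fold lower in HDN than in Naive (edgeR adjusted p = 3.74e-05) and 2.68-fold lower in LDN than in Naive (edgeR adjusted p = 0.00144). Its rise in LDN relative to HDN was 1.73-fold (log2 0.79, SE 0.31, edgeR adjusted p = 0.0482) and was present in 4 of 4 same-numbered pairs. That call held only without LDN 7 or HDN 5, since leaving out any of the other 10 libraries gave an edgeR adjusted p of 0.0564 to 0.18, with log2 fold changes of 0.53 to 0.88. It was also lost under RLE scaling, library totals, library sizes without the abundant genes, no filter and the 8 libraries alone, with log2 fold changes of 0.52 to 0.75 and edgeR adjusted p of 0.0549 to 0.121.

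Ctsd, the aspartic protease, was the most abundant member per length of transcript in each group. It averaged 1405 ± 102 CPM per kb in LDN, 1553 ± 456 CPM per kb in HDN and 714 ± 162 CPM per kb in Naive (SD, n = 4 each). Ctsd was 2.17-fold higher in HDN than in Naive (edgeR adjusted p = 0.000509) and 1.97-fold higher in LDN than in Naive (edgeR adjusted p = 0.00171), and LDN over HDN was -0.14 ± 0.21 (log2, SE). Its exons share 34.4% of their length with the gene model Gm49369 on the same strand, which was not analysed here. How reads over that shared part were counted is not known. Ctsz, a carboxypeptidase, rose 1.73-fold in HDN and 1.46-fold in LDN relative to Naive (edgeR adjusted p = 0.000428 and 0.00698), and the call in LDN was lost without the 20 most abundant genes (log2 0.27, edgeR adjusted p = 0.0768).

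**Figure D3:**
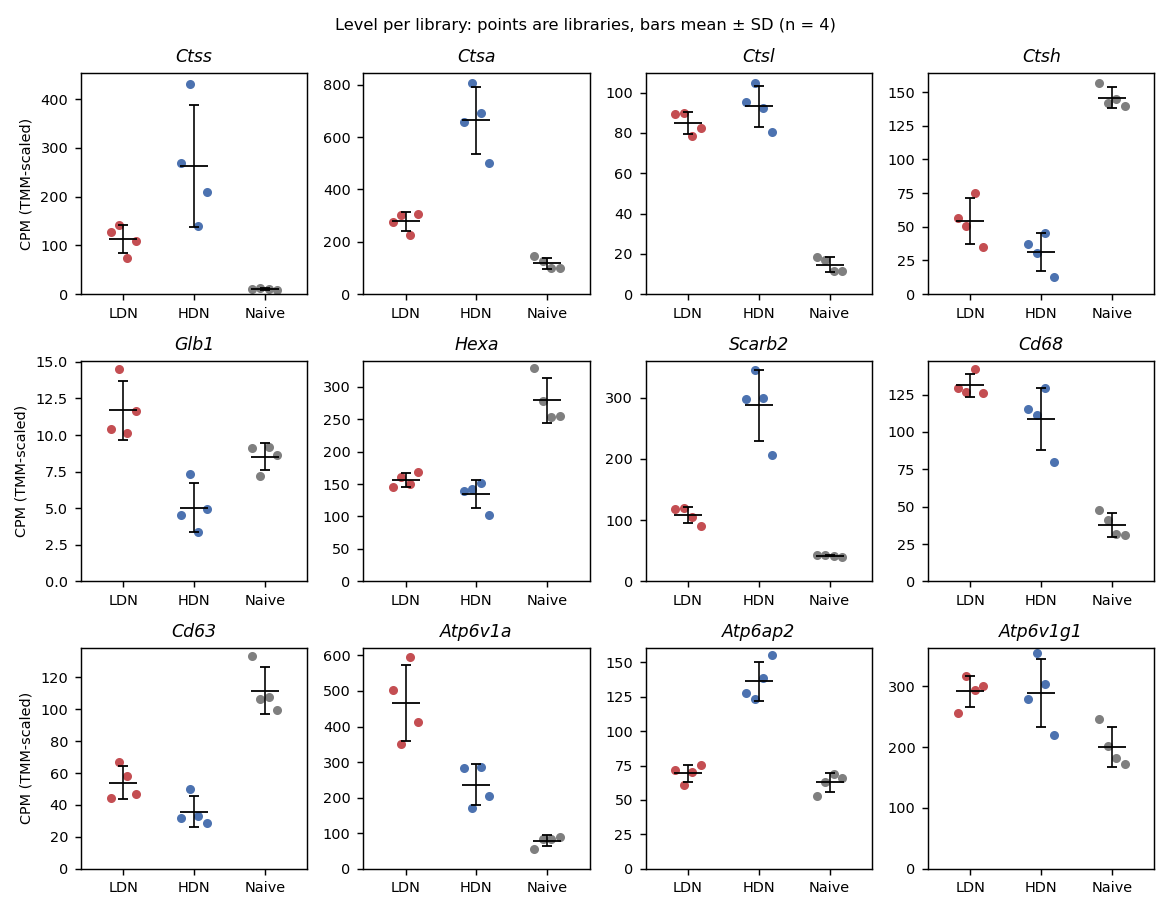
TMM-scaled CPM of 12 members in each library, with the mean and SD of 4 libraries per group, for LDN, HDN and Naive from left to right. Ctss, Ctsa and Scarb2 are highest in HDN, Atp6v1a in LDN, and Ctsh, Hexa and Cd63 in Naive, and Atp6ap2 is high only in HDN among these libraries. The 12 genes were picked after their values were seen.

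The other 11 hydrolases were more mixed. In LDN over HDN 1 rose and 3 fell, in HDN over Naive 4 rose and 2 fell, and in LDN over Naive 2 rose and 2 fell. That is 36.4%, 54.5% and 36.4% called, each below the 46.3%, 59.8% and 54.2% of all genes. Glb1, the beta-galactosidase that removes terminal galactose from glycolipids, had 10.4, 14.5, 10.1 and 11.6 CPM in LDN, 4.51, 7.34, 3.35 and 4.96 CPM in HDN, and 9.10, 7.20, 9.15 and 8.63 CPM in Naive. It was low in HDN, and LDN lay above both other groups without overlap. Exons of Glb1, which had 2339 reads in total, share 5.5% of their length with Tmppe on the same strand, which had 1325. Glb1 was 2.31-fold higher in LDN than in HDN (edgeR adjusted p = 0.000651) and 1.68-fold lower in HDN than in Naive (edgeR adjusted p = 0.00943). LDN over Naive was 0.46 ± 0.22 (log2, SE, edgeR adjusted p = 0.0926), which passed without HDN 4 at 0.46 with an edgeR adjusted p of 0.0329 and with the LDN and Naive libraries alone at 0.43 with 0.0289. Its protein is held in a complex by that of Ctsa, which stood in the opposite order between the fractions.

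Hexa, a subunit of the hexosaminidase that degrades GM2 ganglioside, had 146, 160.2, 149.8 and 169 CPM in LDN, 139, 143, 152 and 103 CPM in HDN, and 329, 277, 253 and 255 CPM in Naive. Marrow was above both blood groups in every library. Hexa was 2.08-fold lower in HDN than in Naive (edgeR adjusted p = 1.33e-05) and 1.78-fold lower in LDN than in Naive (edgeR adjusted p = 0.000143), with LDN over HDN at 0.22 ± 0.13 (log2, SE). Exons of Hexa share 12.8% of their length with Tmem202 on the opposite strand.

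Manba, a beta-mannosidase, had 15.7, 13.1, 12.7 and 13.9 CPM in LDN, 20.6, 16.3, 23.9 and 19.9 CPM in HDN, and 19.7, 21.0, 20.8 and 21.0 CPM in Naive. LDN lay below both other groups, 1.46-fold below HDN (edgeR adjusted p = 0.00589) and 1.49-fold below Naive (edgeR adjusted p = 0.00305), and HDN over Naive was -0.03 ± 0.14 (log2, SE). Tpp1, a tripeptidyl peptidase whose loss causes a neuronal storage disease in humans, had 40.7, 37.5, 38.5 and 35.1 CPM in LDN, 58.3, 56.8, 65.2 and 43.9 CPM in HDN, and 44.7, 43.9, 42.5 and 41.9 CPM in Naive. Each LDN library was below the others. Tpp1 was 1.48-fold lower in LDN than in HDN (edgeR adjusted p = 0.00214) and 1.30-fold higher in HDN than in Naive (edgeR adjusted p = 0.0166), a call lost without HDN 5 (log2 0.30, edgeR adjusted p = 0.0593) and without the 20 most abundant genes (log2 0.22, edgeR adjusted p = 0.0697).

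Asah1, the acid ceramidase, rose 2.54-fold in HDN and 1.95-fold in LDN relative to Naive (edgeR adjusted p = 1.25e-06 and 3.84e-05). It fell 1.30-fold in LDN relative to HDN (log2 -0.38, SE 0.13, edgeR adjusted p = 0.0288), which was lost without HDN 3, HDN 5 or HDN 7, with log2 fold changes of -0.32 to -0.38 and edgeR adjusted p of 0.0524 to 0.0703. Lgmn, the asparaginyl endopeptidase that matures several cathepsins, was scarce, at 4.67 ± 0.896 CPM in LDN, 5.73 ± 1.83 CPM in HDN and 2.48 ± 0.449 CPM in Naive (SD, n = 4 each). It was 2.29-fold higher in HDN than in Naive and 1.87-fold higher in LDN than in Naive (edgeR adjusted p = 0.00104 and 0.00825). Man2b1, an alpha-mannosidase, rose 1.28-fold in HDN relative to Naive (edgeR adjusted p = 0.0313). That call was lost without HDN 3, HDN 4, HDN 5, Naive 2, Naive 3 or Naive 4, with log2 fold changes of 0.30 to 0.35 and edgeR adjusted p of 0.0644 to 0.0989, and with the HDN and Naive libraries alone (0.34, edgeR adjusted p = 0.0703). LDN over Naive, at 0.23 ± 0.13 (log2, SE), passed without HDN 7 with an edgeR adjusted p of 0.0493.

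Psap, the precursor of the saposins that present sphingolipids to hydrolases, was the second most abundant hydrolase gene per length and did not pass in any contrast. It had 1618, 1747, 1631 and 1543 CPM in LDN, 1596, 1966, 1573 and 1039 CPM in HDN, and 1911, 1577, 1433 and 1385 CPM in Naive. The ranges overlapped, with log2 fold changes of 0.08 ± 0.17 (SE) for LDN over HDN, -0.03 ± 0.17 for HDN over Naive and 0.05 ± 0.17 for LDN over Naive. Gaa, the acid alpha-glucosidase, Gla, the alpha-galactosidase, and Gusb, the beta-glucuronidase, also passed in none. Their means were 15.9, 16.6 and 52.2 CPM in LDN, 12.8, 20.2 and 45.9 CPM in HDN, and 12.5, 17.8 and 46.5 CPM in Naive, in the order Gaa, Gla, Gusb. With the replicate number as a block, Gla was lower in LDN than in HDN by 0.31 on the log2 scale (edgeR adjusted p = 0.0444) and higher in HDN than in Naive by 0.47 (edgeR adjusted p = 0.0447). Without HDN 4, Gaa was higher in LDN than in HDN (log2 0.55, edgeR adjusted p = 0.0232).

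Of the 6 membrane proteins, 1 rose and 2 fell in LDN relative to HDN, and in each contrast against Naive 4 rose and 1 fell. That is 50% called between the fractions, against 46.3% of all genes. In HDN and in LDN over Naive it is 83.3%, against 59.8% and 54.2%. Scarb2, the receptor that carries beta-glucocerebrosidase to the lysosome, had 118, 119.5, 105 and 90.4 CPM in LDN, 298, 345, 299 and 207 CPM in HDN, and 43.1, 43.6, 41.9 and 40.3 CPM in Naive. The 3 groups were fully apart in the order HDN, LDN, Naive. Scarb2 was 2.66-fold lower in LDN than in HDN (edgeR adjusted p = 8.86e-06), the widest fall of a member between the fractions. It was 6.81-fold higher in HDN than in Naive (edgeR adjusted p = 6.17e-09) and 2.56-fold higher in LDN than in Naive (edgeR adjusted p = 4.87e-06).

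Cd63, the tetraspanin of late endosomes and azurophil granules, had 44.2, 66.8, 58.4 and 46.7 CPM in LDN, 31.9, 49.9, 33.0 and 28.4 CPM in HDN, and 133, 106, 108 and 99.2 CPM in Naive. Like Ctsh and Hexa it was highest in marrow, without overlap. Summed platelet and T and NK cell markers were also highest in marrow, as given above, and the part of those cells was not tested. Cd63 was 3.11-fold lower in HDN than in Naive (edgeR adjusted p = 5.31e-06) and 2.07-fold lower in LDN than in Naive (edgeR adjusted p = 0.00034). The rise in LDN relative to HDN was 1.51-fold (log2 0.59, SE 0.19, edgeR adjusted p = 0.0189), and it was lost without LDN 4, LDN 5 or HDN 3, with log2 fold changes of 0.42 to 0.54 and edgeR adjusted p of 0.0523 to 0.0755, and with library totals alone (0.30, edgeR adjusted p = 0.138).

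Mcoln1, the calcium channel TRPML1 of the lysosomal membrane, had 9.10, 12.3, 8.38 and 13.8 CPM in LDN, 14.9, 19.1, 13 and 20.2 CPM in HDN, and 13.9, 12.7, 12 and 12.8 CPM in Naive. In each same-numbered pair LDN was below HDN although the ranges overlapped by 1 library, and the fall was 1.54-fold (log2 -0.62, SE 0.19, edgeR adjusted p = 0.0161). HDN over Naive was 0.39 ± 0.19 (log2, SE), which passed without HDN 5 at 0.50 with an edgeR adjusted p of 0.0403.

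Cd68, a heavily glycosylated membrane protein of myeloid lysosomes, had 129, 127, 142 and 126 CPM in LDN, 115, 111, 129 and 79.8 CPM in HDN, and 47.8, 41.4, 31.8 and 30.8 CPM in Naive. Both blood groups were above marrow in every library, by 2.86-fold in HDN (edgeR adjusted p = 3.61e-06) and 3.45-fold in LDN (edgeR adjusted p = 1.37e-06), with LDN over HDN at 0.27 ± 0.16 (log2, SE). Of the 11 monocyte and macrophage markers tested, 3 rose and 6 fell in HDN, and 4 rose and 5 fell in LDN, relative to Naive. Their summed level was lower in both blood groups than in Naive, as given above. The part of these markers' cells in this result was not tested.

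Lamp2, which takes part in chaperone-mediated autophagy, had 478, 253, 489 and 316 CPM in LDN, 453, 252, 398 and 387 CPM in HDN, and 103, 150.0, 141 and 148 CPM in Naive. Libraries numbered 4 were the lowest in both blood groups. Lamp2 was 2.75-fold higher in HDN than in Naive (edgeR adjusted p = 9.56e-05) and 2.84-fold higher in LDN than in Naive (edgeR adjusted p = 9.97e-05), and LDN over HDN was 0.04 ± 0.23 (log2, SE). Lamp1, the abundant coat protein whose promoter is printed above, averaged 302 ± 55.1 CPM in LDN, 313 ± 68.1 CPM in HDN and 223 ± 6.64 CPM in Naive (SD, n = 4 each). Its rises over Naive were 1.40-fold in HDN and 1.35-fold in LDN (edgeR adjusted p = 0.0158 and 0.031). The call in HDN was lost without Naive 2 (log2 0.45, edgeR adjusted p = 0.0524) and without the 20 most abundant genes (log2 0.34, edgeR adjusted p = 0.0907). The call in LDN was lost without LDN 4, LDN 7 or any of the Naive libraries, with log2 fold changes of 0.28 to 0.44 and edgeR adjusted p of 0.0586 to 0.148. RLE scaling, library totals and sizes without the abundant genes gave it 0.38, 0.21 and 0.15 on the log2 scale, with edgeR adjusted p of 0.0506, 0.321 and 0.465.

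The genes of the vacuolar ATPase went in both directions between the fractions. Of its 8 V1 genes, 4 rose and 0 fell in LDN relative to HDN in the main scaling. That is 50% called, against 46.3% of all genes, and 50% called higher, against 26.0%. With library totals alone 1 rose and 2 fell, and without the 20 most abundant genes 3 rose and 1 fell. The median log2 fold change of the V1 genes stood 0.28 above that of all genes in the main fit and 0.29 above it in both other scalings. None of the 4 tested V0 genes passed in the main fit, while 2 fell with library totals and 1 fell without the abundant genes. Both accessory genes fell in LDN relative to HDN in each of these scalings.

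Atp6v1a, the catalytic subunit that hydrolyses ATP, had 503, 351, 594 and 414 CPM in LDN, 282, 171, 287 and 205 CPM in HDN, and 55.7, 85.1, 84.5 and 90.5 CPM in Naive. The 3 groups did not overlap and stood in the order LDN, HDN, Naive. Atp6v1a was 1.97-fold higher in LDN than in HDN (edgeR adjusted p = 0.00208), 2.99-fold higher in HDN than in Naive (edgeR adjusted p = 2.4e-05) and 5.90-fold higher in LDN than in Naive (edgeR adjusted p = 6.34e-07). Its log2 ratio in the 4 same-numbered pairs was 0.84, 1.04, 1.05 and 1.01. Its partner in the catalytic ring, Atp6v1b2, passed in none of the contrasts, at 496 ± 17.6 CPM in LDN, 545 ± 110.1 CPM in HDN and 461 ± 24.6 CPM in Naive (SD, n = 4 each). For Atp6v1b2, leaving out HDN 7 gave a fall of 0.27 in LDN relative to HDN and a rise of 0.38 in HDN relative to Naive on the log2 scale (edgeR adjusted p = 0.0287 and 0.00261), and library totals gave that rise as 0.29 (edgeR adjusted p = 0.00734).

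Atp6v1d, part of the rotating central stalk, had 94.4, 82.9, 111 and 76.2 CPM in LDN, 66.7, 53.4, 68.8 and 49.8 CPM in HDN, and 55.6, 63.6, 65.9 and 64.9 CPM in Naive. LDN lay above both other groups, 1.53-fold above HDN (edgeR adjusted p = 0.00356) and 1.46-fold above Naive (edgeR adjusted p = 0.00565), and HDN over Naive was -0.07 ± 0.14 (log2, SE). Atp6v1h, a subunit needed for ATP hydrolysis by the assembled pump, had 34.2, 40.9, 35.0 and 36.6 CPM in LDN, 23.6, 27.2, 22.1 and 23.2 CPM in HDN, and 19.2, 22.2, 24.5 and 26.4 CPM in Naive. It showed the same pattern, 1.53-fold above HDN (edgeR adjusted p = 0.00189) and 1.59-fold above Naive (edgeR adjusted p = 0.000659), with HDN over Naive at 0.06 ± 0.13 (log2, SE). With library totals alone, the rises in LDN relative to HDN were 0.32 for Atp6v1d and 0.31 for Atp6v1h on the log2 scale and did not pass (edgeR adjusted p = 0.0548 and 0.119). The rise of Atp6v1d over Naive was lost with library totals (0.30, edgeR adjusted p = 0.0669) and without the 20 most abundant genes (0.24, edgeR adjusted p = 0.131), and that of Atp6v1h without those genes (0.37, edgeR adjusted p = 0.054).

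Atp6v1c1, which links the catalytic head to the membrane sector, had means of 57.3 ± 2.94 CPM in LDN, 44.8 ± 4.75 CPM in HDN and 36.1 ± 5.38 CPM in Naive (SD, n = 4 each). It rose 1.28-fold in LDN relative to HDN and 1.24-fold in HDN relative to Naive (edgeR adjusted p = 0.0344 and 0.0491), and 1.59-fold in LDN relative to Naive (edgeR adjusted p = 0.000606). The rise over HDN was lost without any 1 of the LDN libraries or HDN 7 (log2 0.26 to 0.31, edgeR adjusted p = 0.0795 to 0.136). It was also lost under RLE scaling, library totals, sizes without the abundant genes, no filter and the 8 libraries alone (log2 0.06 to 0.31, edgeR adjusted p = 0.0519 to 0.715). The rise of HDN over Naive was lost without LDN 3, LDN 7, HDN 3, HDN 4, HDN 5, Naive 1, Naive 2 or Naive 3 (log2 0.22 to 0.34, edgeR adjusted p = 0.0506 to 0.116), and without the abundant genes, with no filter, with the 8 libraries alone and with the replicate block (log2 0.15 to 0.31, edgeR adjusted p = 0.0675 to 0.369).

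Atp6v1e1, of the peripheral stalk, had 140.2, 164, 165 and 149 CPM in LDN, 131, 154, 132 and 102 CPM in HDN, and 177, 163, 162 and 161 CPM in Naive. In the main scaling it was the only tested pump gene to fall against marrow, 1.28-fold in HDN (log2 -0.35, SE 0.12, edgeR adjusted p = 0.0223). With the replicate number as a block this was -0.27 with an edgeR adjusted p of 0.147. LDN did not pass against HDN (0.25 ± 0.12) or Naive (-0.10 ± 0.12). Without HDN 4, LDN over HDN passed at 0.35 (edgeR adjusted p = 0.0269). Atp6v1g1, its partner in that stalk, had 255, 316, 294 and 300.1 CPM in LDN, 278, 354, 303 and 219.6 CPM in HDN, and 246, 202, 183 and 172 CPM in Naive. It rose 1.44-fold in HDN and 1.45-fold in LDN relative to Naive (edgeR adjusted p = 0.0092 and 0.00902), the rise in LDN being lost without the 20 most abundant genes (log2 0.26, edgeR adjusted p = 0.0679). LDN over HDN was 0.01 ± 0.15 (log2, SE). Atp6v1f passed in none, with means of 66.5, 73.9 and 72.6 CPM in LDN, HDN and Naive.

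In the membrane sector, Atp6v0a1, the subunit through which protons enter and leave the ring, had 445, 439.9, 494 and 429 CPM in LDN, 426, 408, 448 and 359.8 CPM in HDN, and 212, 204, 178 and 181 CPM in Naive. Blood and marrow libraries were far apart and the fractions overlapped. Atp6v0a1 was 2.12-fold higher in HDN than in Naive (edgeR adjusted p = 1.32e-06) and 2.33-fold higher in LDN than in Naive (edgeR adjusted p = 7.92e-07), with LDN over HDN at 0.14 ± 0.11 (log2, SE). Atp6v0d1, which sits between the ring and the stalk, rose 1.46-fold in LDN relative to Naive (edgeR adjusted p = 0.00426). HDN over Naive was 0.31 ± 0.14 (log2, SE), which passed without HDN 7 at 0.42 and without Naive 1 at 0.41 (edgeR adjusted p = 0.00738 and 0.0124). It also passed with library totals at 0.37 and with the replicate block at 0.52 (edgeR adjusted p = 0.0041 and 0.0197). Atp6v0b and Atp6v0e passed in none, at 166 and 148 CPM in LDN, 183 and 164 CPM in HDN, and 159 and 142 CPM in Naive. Atp6v0b passed in HDN over Naive without Naive 1 (log2 0.30, edgeR adjusted p = 0.045), with library totals (0.27, edgeR adjusted p = 0.0446) and with the replicate block (0.41, edgeR adjusted p = 0.04).

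The accessory proteins stood apart from the core subunits. Atp6ap2, the (pro)renin receptor, which takes part in pump assembly, had 71.6, 60.7, 70.0 and 75.5 CPM in LDN, 128, 123, 138 and 156 CPM in HDN, and 53.2, 63.3, 68.7 and 66.2 CPM in Naive. HDN alone was high, above every library of the other groups. Atp6ap2 was 1.96-fold lower in LDN than in HDN (edgeR adjusted p = 2.98e-05) and 2.17-fold higher in HDN than in Naive (edgeR adjusted p = 2.58e-06), and LDN over Naive was 0.14 ± 0.12 (log2, SE). Atp6ap1, the assembly factor Ac45, had 339, 364, 361 and 378 CPM in LDN, 509, 617, 547 and 439 CPM in HDN, and 371, 325, 298 and 288 CPM in Naive. It followed the same order, 1.47-fold lower in LDN than in HDN (edgeR adjusted p = 0.00265) and 1.65-fold higher in HDN than in Naive (edgeR adjusted p = 0.000193), with LDN over Naive at 0.17 ± 0.12 (log2, SE).

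Summed over genes and taken as a share of all counts in a library, hydrolases held 0.680 ± 0.0245% in LDN, 0.948 ± 0.126% in HDN and 0.532 ± 0.0470% in Naive (SD, n = 4 each). Hydrolases, membrane proteins and pump were each highest in HDN and lowest in Naive, without overlap between groups. With a denominator that leaves out the 20 most abundant genes, HDN 7 lay inside the LDN range for hydrolases, at 0.896% against 0.888% to 0.949%, and for the pump, at 0.3818% against 0.3701% to 0.3821%, so that LDN and HDN then overlapped. Membrane proteins held 0.0876 ± 0.00497% in LDN, 0.123 ± 0.00682% in HDN and 0.0586 ± 0.00318% in Naive. The pump held 0.281 ± 0.00543%, 0.335 ± 0.0121% and 0.228 ± 0.00397% in LDN, HDN and Naive. The 2 transcription factors held 0.0200 ± 0.000681% in LDN, 0.0236 ± 0.00195% in HDN and 0.0292 ± 0.00300% in Naive. These shares use unscaled counts and weigh abundant genes most. With library totals alone the all-gene median log2 fold change of LDN over HDN was -0.28. In the main scaling that median was 0.08 for the pump, -0.005 for membrane proteins and -0.19 for hydrolases, against 0.02 for all genes. The pump's higher share in HDN than in LDN was thus not matched by its median in the main scaling. Without Ctsd the hydrolases held 0.388% in LDN, 0.559% in HDN and 0.359% in Naive, and without Atp6v1a the pump held 0.240% in LDN, 0.309% in HDN and 0.220% in Naive.

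**Figure D4:**
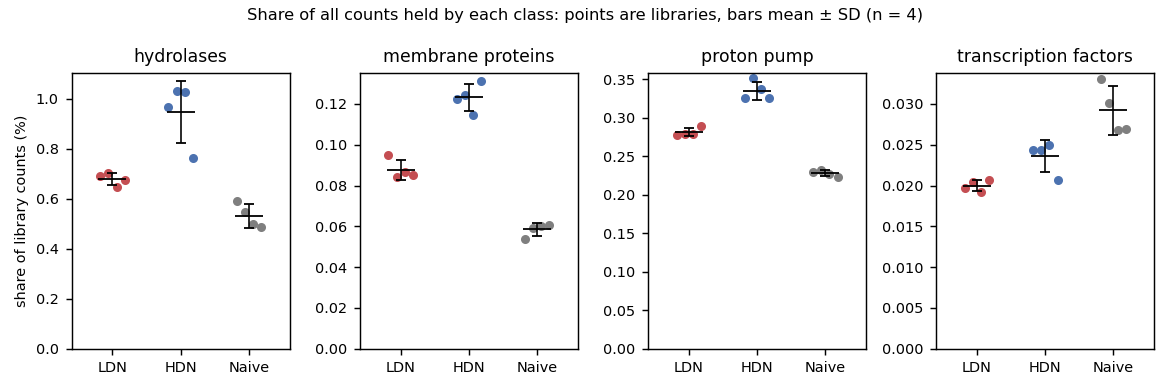
Share of all counts of a library, in percent, held by the hydrolases, the membrane proteins, the proton pump and the 2 transcription factors, with points for libraries and mean and SD of 4 libraries per group. Hydrolases, membrane proteins and pump stand in the order HDN, LDN, Naive, with hydrolase means of 0.680% in LDN, 0.948% in HDN and 0.532% in Naive, and the transcription factors are highest in Naive. The counts are not TMM-scaled.

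Among the HDN libraries HDN 7 stood apart in many members. It was the lowest of the 4 HDN libraries in 30 of 40 members, against 37.4% of all genes tested, and its TMM factor was 1.28 where the other HDN libraries had 1.01 to 1.05. Leaving it out gave 5 members higher and 11 lower in LDN relative to HDN, 22 higher and 5 lower in HDN relative to Naive, and 20 higher and 5 lower in LDN relative to Naive. In the hydrolase share HDN 7 held 0.764%, against 0.969% to 1.03% in the other HDN libraries. Its part in the single results above was not tested beyond these values.

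LDN and HDN libraries with the same number were taken as pairs. In 23 of 40 members the 4 pairs had the same direction, 13 with LDN higher and 10 with LDN lower, which is 57.5% against 65.2% of all genes. Atp6v1a, Atp6v1d, Atp6v1h, Atp6v1c1, Glb1, Ctsh and Cd63 were higher in LDN in 4 of 4 pairs, and Ctsa, Ctss, Scarb2, Mcoln1, Manba, Tpp1, Asah1, Atp6ap1 and Atp6ap2 were lower in 4 of 4. Of the members called in this contrast only Ctsb had a pair in the other direction, pair 7, at a log2 ratio of 0.16. Libraries of LDN and HDN did not overlap in 12 of 40 members, against 39.2% of all genes. They did not overlap in 21 members between HDN and Naive, against 53.3%, and in 26 between LDN and Naive, against 55.3%.

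**Figure D5:**
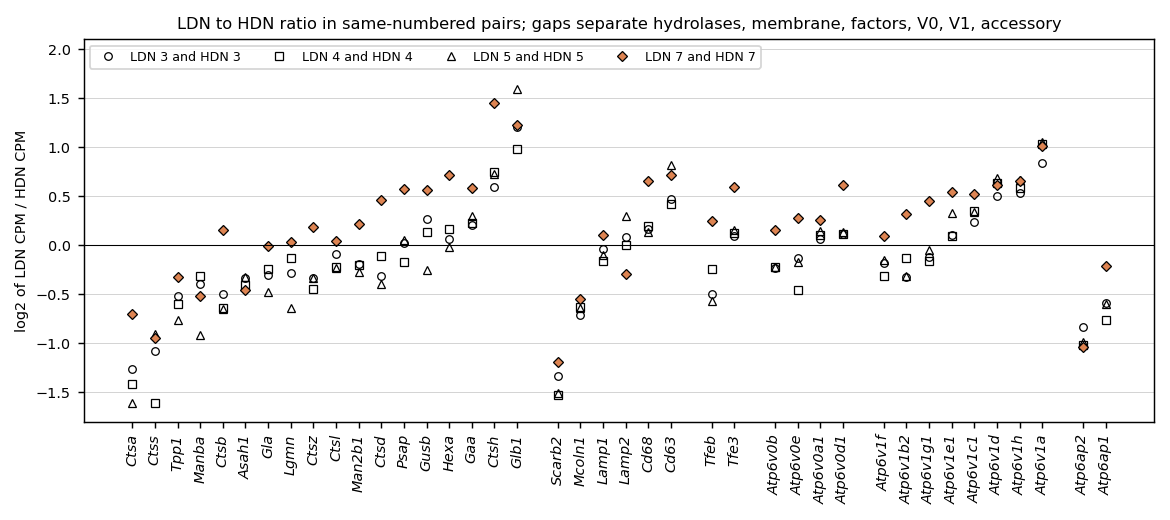
Log2 ratio of LDN to HDN CPM in each of the 4 same-numbered pairs for the 40 tested members, with 1 marker shape per pair and pair 7 filled. Pair 7 lies above the other pairs in many hydrolases and V0 genes, as for Psap at 0.57 and Hexa at 0.71, and close to them for Atp6v1a, Atp6v1h and Mcoln1.

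The mean levels stood in the order HDN, LDN, Naive in 16 members, 9 of them hydrolases, and in the order LDN, HDN, Naive in 9 members, 6 of them pump genes. Naive was highest in 7 members. Per kilobase of exon, in the gene models of GENCODE M21, Ctsd, Psap and the stalk gene Atp6v1g1 were the most abundant members in LDN, at 1405, 596 and 257 CPM per kb, and in HDN, at 1553, 563 and 254 CPM per kb. Manba, Mcoln1, Lgmn, Glb1, Gaa and Atp6v1h had the lowest values in LDN, from 1.44 CPM per kb for Mcoln1 to 3.88 CPM per kb for Glb1. In HDN, Glb1 was lowest of all at 1.68 ± 0.558 CPM per kb (SD, n = 4). Atp6v1g2, another form of the stalk subunit best known from neurons, was also found, at 8.04 ± 0.980 CPM in LDN, 3.39 ± 0.862 CPM in HDN and 3.26 ± 0.433 CPM in Naive. It was 2.37-fold higher in LDN than in HDN (edgeR adjusted p = 0.000278), without overlap. The other tested isoform, Atp6v0a2, did not pass in any contrast. Of the tissue-restricted isoforms, Atp6v0a4, Atp6v1b1, Atp6v1e2 and Atp6v1g3 were at 0 reads in the 12 libraries together, and Atp6v0d2, Atp6v1c2 and Atp6v0e2 had 4, 21 and 28.

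Other genes of the lysosome were taken from lists chosen for their role. Of 39 further hydrolases and cofactors tested, 8 rose and 13 fell in LDN relative to HDN, 22 rose and 8 fell in HDN relative to Naive, and 20 rose and 7 fell in LDN relative to Naive. That is 53.8%, 76.9% and 69.2% called, against 46.3%, 59.8% and 54.2% of all genes. Gm2a, the activator that presents GM2 to the enzyme containing the Hexa product, averaged 203 ± 41.4 CPM in LDN, 690.4 ± 149 CPM in HDN and 133 ± 22.7 CPM in Naive (SD, n = 4 each). It was 3.40-fold lower in LDN than in HDN (edgeR adjusted p = 1.3e-05). Plbd1, a phospholipase B-like protein of granules, averaged 598 ± 103 CPM in LDN, 180.0 ± 52.3 CPM in HDN and 1183 ± 26.1 CPM in Naive and was 3.32-fold higher in LDN than in HDN (edgeR adjusted p = 1.38e-05). Idua, an iduronidase, fell 3.14-fold and Arsb, a sulfatase, rose 2.80-fold in LDN relative to HDN (edgeR adjusted p = 1.77e-05 and 5.83e-06). The scarcer Scpep1 had the widest log2 fold change of this list in LDN over HDN, 2.05. It stood at 1.839 to 3.465 CPM in LDN and 0.3393 to 0.9854 CPM in HDN.

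Of 22 further membrane proteins, 2 rose and 3 fell in LDN relative to HDN, 12 rose and 5 fell in HDN relative to Naive, and 11 rose and 4 fell in LDN relative to Naive. That is 22.7%, 77.3% and 68.2% called, against 46.3%, 59.8% and 54.2% of all genes. Among those that differed between the fractions, Laptm4b had a log2 fold change of -1.29, the endolysosomal channel gene Tpcn1 -0.86, Cd164 0.64 and the sorting receptor Sort1 0.64. Of 22 genes of signalling at the lysosome, 5 rose and 4 fell in LDN relative to HDN, and 5 rose and 6 fell in each contrast against Naive. The signalling genes were called at 40.9% between the fractions and 50% in each contrast against Naive, below the shares of all genes. Mlst8, a subunit of both mTOR complexes, averaged 24.5 ± 5.74 CPM in LDN, 3.60 ± 1.35 CPM in HDN and 102 ± 8.33 CPM in Naive (SD, n = 4 each). Flcn and its partner Fnip1, which act on the Rag GTPases and thereby on TFEB and TFE3, fell in LDN relative to HDN by 1.48 and 1.87 on the log2 scale (edgeR adjusted p = 3.37e-05 and 0.00302). Fnip1 had 5.30, 4.29, 8.22 and 5.68 CPM in LDN, against 19.7, 8.55, 11.1 and 46.3 CPM in the HDN libraries. Without HDN 7, the highest of these, its log2 fold change was -1.157 (edgeR adjusted p = 0.00405). Lamtor4, of the Ragulator scaffold, rose in that contrast by 1.35. Of 3 tested inhibitors of lysosomal proteases, 1 rose and 1 fell in LDN relative to HDN. Cst3, cystatin C, fell by 0.56 on the log2 scale (edgeR adjusted p = 0.0117). Cst7 rose by 2.48, the widest change of the 3, and was scarce. It had 2.34, 2.86, 1.89 and 1.77 CPM in LDN and 0.339, 0.350, 0.799 and 0.0763 CPM in HDN. The value in HDN 7 lay below its limit of 3 reads, 0.1145 CPM.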

How the data were processed

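Polyadenylated RNA of 12 neutrophil libraries was sequenced after stranded library preparation, per the labels' protocols. The submitters' processing notes name CASAVA 1.8.2, Trimmomatic, STAR and DESeq2 1.16.1. Not given in the sources used here were the build, the gene models and how strand was handled in counting. The deposited table holds raw counts per gene symbol that the authors had not normalized. The authors' deposited comparison tables were not used. Members and lists were chosen with earlier results of these data known.

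Genes passing filterByExpr by group in edgeR 4.0.16 (R 4.3.3) were scaled by TMM and fitted together, 12 libraries in 1 robust quasi-likelihood model that held group alone. P-values were adjusted over 10604 genes by Benjamini-Hochberg. CPM values are TMM-scaled. Lengths for CPM per kb are exon unions of GENCODE M21, and promoters are from the RefSeq table on GRCm38.p6, matched by symbol. The script was tested on simulated data. Per-library values are given for the 3 members with the largest absolute fold change in each direction, per contrast and class, among those past the threshold with mean log2 CPM no lower than 1, for Tfeb and Tfe3, and for the least changed member of each class between LDN and HDN. Context lists are represented by up to 4 genes with the largest difference between LDN and HDN. These too were past the threshold with mean log2 CPM no lower than 1. The lists' tested cathepsins and the scarcer Scpep1 and Cst7 are also named. Some genes of the context lists were not analysed here.

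The labels number the LDN libraries 3, 4, 5 and 7 and the HDN libraries likewise. Deviations from the group means correlated at 0.315 to 0.76 between same-numbered libraries and at -0.608 to 0.412 between others, so the numbers were taken to pair them, while Naive numbers did not pair. No 2 libraries of a group agreed within counting noise (chi-square per gene 2.79 to 144.9). Alternatives were RLE scaling, library totals, library sizes without the 20 most abundant genes, no filter, DESeq2 1.42.0, limma-voom (limma 3.58.1), the 8 libraries compared alone, the replicate block and leaving out each library. Floors cover counting error only, since reads without molecular identifiers are not independent molecules.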

Additional observations from a re-analysis of the deposited data

Results flagged for a closer look

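Of 120 gene and group combinations examined, 4 had a library whose gap to the nearest other library was wide relative to the range of its group, where chance alone flags about 1 in 20. Asah1 was at 42.5 CPM in Naive 1, against 53.8 to 54.4 CPM in the other Naive libraries. Tfeb was at 65.5 CPM in HDN 7, against 93.8 to 97.9 CPM in the other HDN libraries. Atp6v1c1 was at 61.6 CPM in LDN 5, against 55.2 to 56.2 CPM in the other LDN libraries. Atp6v1e1 was at 177 CPM in Naive 1, against 161 to 163 CPM in the other Naive libraries.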

How the results depend on the processing

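No member changed sign in any contrast where it was called, under 8 alternative settings and 12 fits that each left out a library. With library totals alone, LDN over HDN gave 2 members higher and 20 lower (hydrolases 1 and 11, membrane proteins 0 higher, transcription factors 1 lower, pump 1 and 6), LDN over Naive gave 9 lower (transcription factors 2, pump 2). In these fits the all-gene median moved to -0.28 and -0.22. Library sizes without the 20 most abundant genes gave 16 lower in LDN over HDN (hydrolases 1 higher, transcription factors 1 lower, pump 4 lower), 2 transcription factors lower in HDN over Naive, and in LDN over Naive 9 lower (transcription factors 2, pump 2) with 4 pump genes higher, at all-gene medians of -0.12, -0.11 and -0.27. The share of calls in the higher direction among all genes in LDN over HDN was 56.2% in the main fit, 32.7% with library totals and 44.9% without the abundant genes. In LDN over Naive it was 50.6%, 35.6% and 32.1%, and in HDN over Naive without the abundant genes 40.6% against 50.1%. RLE scaling, no filter on low counts and the 8 libraries compared alone each left 1 hydrolase higher in LDN over HDN, and the last of these left 0 transcription factors lower in HDN over Naive. Beyond the scaling itself, the cause of these changes was not tested.

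With the replicate number as a block, 7 members rose and 11 fell in LDN over HDN, Gla (-0.31) being the single changed call. In HDN over Naive the block left 0 transcription factors and 0 pump genes lower, and in LDN over Naive 0 transcription factors lower. There the calls of Tfe3 (-0.19), Atp6v1c1 (0.16) and Atp6v1e1 (-0.27) in HDN and of Tfeb (-0.31) in LDN were lost, and Gla (0.47), Atp6v0b (0.41) and Atp6v0d1 (0.52) passed in HDN. The block changed no other call of a member. Its results against Naive rest on the numbers 3 and 4, the only ones that Naive shares with the blood groups. Naive numbers did not pair, so these results cannot decide whether a call holds.

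Leaving out single libraries gave 4 to 8 members higher in LDN over HDN, 1 to 2 hydrolases higher, 0 to 1 membrane proteins higher and 0 to 1 transcription factors lower, and 0 to 2 transcription factors lower in HDN over Naive. Calls kept under every setting and in every such fit were 2 of 7 higher (Atp6v1a and Glb1) and 8 of 10 lower in LDN over HDN, 16 of 20 and 4 of 6 in HDN over Naive, and 14 of 19 and 4 of 5 in LDN over Naive.

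Without the 20 most abundant genes in the denominator, hydrolases held 0.913% in LDN, 1.14% in HDN and 0.744% in Naive, membrane proteins 0.118%, 0.148% and 0.0819%, and the pump 0.377%, 0.403% and 0.319%. The share of member promoters with a motif was 38.2% for CACGTG, 20.6% for TCACGTGA and 0 for that palindrome between G and C. With 4 libraries per group some calls depended on the library left out, that of Ctsh at 1.73-fold included, and Atp6v0c could not be assessed. Besides Ctsc, Ctsk, Scpep1 and Cst7, 14 genes outside the members are named with a difference between LDN and HDN. For these 14 the same settings were tried. This was done after the values were seen, and each kept its call. The value of Fnip1 moved by over 1.5 times without HDN 7.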
